A study of Mus musculus with 16 samples.

Results

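The genes described here encode the proteins of the cytosolic ribosome. They were taken by name: 86 of the 34650 gene names on the array began with Rpl or Rps followed by a number, or were Rpsa or the stalk proteins Rplp0, Rplp1 and Rplp2, with S6 kinases, pseudogenes and predicted Gm names left out. Among them were 45 proteins of the large subunit, 31 of the small subunit, and 10 paralogs or related names that are not standard subunits of most ribosomes. They were read by 194 of 55681 probes. In 84 genes at least 1 probe exceeded background clearly in every array of some group, and these genes were tested with 22585 genes in all; each of the 84 was above background on all 16 arrays. The 2 untested genes were Rpl10l and Rpl3l, paralogs known from testis and from muscle, which were above background on at most 1 array of any group.

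The cells were primary murine lung fibroblasts, isolated from lung and passaged at least 3 times. They were seeded in a 6-well plate, transfected with an siRNA and harvested 48 h later. The 4 groups, of 4 arrays each, received a scrambled siRNA (scr) or an siRNA against lysyl oxidase (Lox, here siLox), against Loxl1 (siLoxL1) or against Loxl2 (siLoxL2), enzymes that cross-link collagen and elastin. Every group therefore carried an siRNA, and no untransfected cells were included; strain, age and sex of the mice are not given in the sources used here. Nothing stated whether the 4 samples of a group came from separate mice or cultures, and the p-values below therefore cover no more than the spread among these 16 samples, which may be technical. The first slide held scr with siLox, and the second held siLoxL1 with siLoxL2. The comparisons siLox against scr and siLoxL1 against siLoxL2 were thus within a slide, whereas in siLoxL1 against scr and siLoxL2 against scr the slide and the siRNA cannot be told apart. Within a slide each group filled its own row, scr and siLoxL1 row 1, siLox and siLoxL2 row 2. In the comparisons within a slide the row and the siRNA therefore cannot be told apart either.

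A cytosolic ribosome joins a small subunit, which decodes the messenger RNA, to a large subunit, which forms the peptide bond. Its proteins are made in near-equal amounts from genes scattered over the genome, and their transcripts are among the most abundant in any growing cell. Most carry a terminal oligopyrimidine (TOP) run, a stretch of C and T that starts at the cap, through which mTORC1 and the RNA-binding protein Larp1 control their translation. In fibroblasts, ribosome production is known to follow growth signals such as Myc and mTORC1. A few proteins have paralogs, such as Rpl22l1 for Rpl22 and Rpl39l for Rpl39, which can take the place of the standard protein.

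The transcription start of members is shown first because the TOP run is the feature the family is known for. RefSeq (GRCm38.p6) promoters were matched for 64 of the 86 members. Within 10 bases before to 20 after the annotated start, on the sense strand, 18 of the 64 (28.1%) held at least 1 of 4 runs, namely CTTTTC, then CTTTCC, further CTCTTT, and lastly CCTTTC, against 4.44% of 27025 genes. The ETS-type letters CCGGAAGT, on either strand from 250 bases before to 50 after the start, were in 17.2% of members and 4.31% of all genes. The letters AAGATGGC (bound by Yy1) were in 9.38% and 3.19%, CACGTG (an E-box) in 9.38% and 8.09%, and TATAAA in 10.9% and 15.7%. A match describes letters near an annotated start, which need not be the start used in these cells. The sequences below run from 30 bases before the start to 20 after it, with the TOP-like letters of the searched stretch in capitals.
Rps6, chr4:86857348-86857397, minus strand: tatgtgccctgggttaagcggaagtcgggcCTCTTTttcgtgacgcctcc
Rpl28, chr7:4792935-4792984, plus strand: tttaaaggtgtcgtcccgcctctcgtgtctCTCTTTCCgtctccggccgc
Rps27, chr3:90213629-90213678, minus strand: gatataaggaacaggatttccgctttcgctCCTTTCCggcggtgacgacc
Rpl13a, chr7:45128726-45128775, minus strand: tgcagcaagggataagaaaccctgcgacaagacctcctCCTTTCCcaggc
Rpl39l, chr16:10170198-10170247, plus strand: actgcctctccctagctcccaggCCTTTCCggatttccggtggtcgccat
Rpl36a, chrX:134585624-134585673, plus strand: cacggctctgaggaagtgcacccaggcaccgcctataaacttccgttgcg
Rpl4, chr9:64173357-64173406, plus strand: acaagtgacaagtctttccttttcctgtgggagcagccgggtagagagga
Rpl22l1, chr3:28805478-28805527, plus strand: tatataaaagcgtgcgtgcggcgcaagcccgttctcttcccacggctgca
Rps6, Rpl28, Rps27 and Rpl13a hold the letters at or just after the start. The windows of Rpl36a, Rpl4 and Rpl22l1, members with the large differences described below, hold none in the searched stretch. The Rpl4 window does hold CTTTCC and CTTTTC, which both begin farther than 10 bases before the annotated start and were not counted. Rpl39l, a paralog, holds them just before its annotated start.

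Each level below is the log2 signal of a member's brightest probe relative to the 75th percentile of its array, and levels are compared only within a probe. The 2 slides differed overall: 49.2% to 52.3% of non-control spots were well above background on the first and 60.4% to 63.1% on the second, and the 75th percentile of log2 signal was 8.67 to 9.03 and 9.74 to 9.90. No spot was saturated (0 on each array). Each targeted gene was lower in its own group than in the other group on its slide. Lox stood at 3.88 to 4.16 in scr and 0.39 to 2.04 in siLox, Loxl1 at 4.54 to 4.72 in siLoxL1 and 5.65 to 5.80 in siLoxL2, and Loxl2 at 5.25 to 5.58 in siLoxL2 and 5.59 to 5.81 in siLoxL1. The Loxl2 difference between siLoxL1 and siLoxL2 did not pass in limma under either scaling, as 0 of 3 targets were called higher in siLoxL1. Loxl2 in siLox (5.51 to 6.03) overlapped siLoxL2. The siLox arrays were also lower than scr for Loxl1 (−0.49 ± 0.13) and Loxl2 (−0.71 ± 0.17; limma, adjusted p = 0.0346 and 0.0247), and siLoxL1 was lower than scr for Loxl2 (−0.76 ± 0.14; limma, adjusted p = 0.000221). All 10 fibroblast markers were above background on all 16 arrays. Of 9 epithelial markers, Epcam, Cdh1, Sftpc and Sftpb were above background on 0 arrays and 4 others on all 16.

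After Lox knockdown the ribosomal protein transcripts lay slightly lower as a family when arrays were scaled by the 75th percentile, and level when they were scaled by quantiles. The median over the 84 tested genes was −0.12 on the log2 scale, against −0.05 over all 22585 genes, and 78 of the 84 had a negative difference. In limma with Benjamini-Hochberg adjustment (threshold 0.05), 0 members rose and 6 fell, where 25.0% of all genes passed in either direction, 11.5% higher and 13.6% lower. Among them were Rps27l, a p53-inducible paralog of Rps27, the large-subunit proteins Rpl30, Rpl23a and Rpl28, and the small-subunit protein Rps25. In 35 members all 4 siLox arrays were below all 4 scr arrays and in 1, Rps4l, above; among all genes these shares were 17.0% and 13.6%. In bulk samples, fewer cells of a type and less RNA per cell cannot be told apart.

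Rps27l read 7.16, 7.12, 6.99 and 7.07 on the scr arrays and 6.78, 6.83, 6.81 and 6.93 on the siLox arrays. The groups did not overlap, and the difference was −0.25 ± 0.06 (SE, n = 4 against 4; limma, adjusted p = 0.0298). Rpl30, which sits near the interface between the subunits, read 7.53, 7.54, 7.45 and 7.46 in scr and 7.19, 7.24, 7.27 and 7.33 in siLox, again without overlap (−0.24 ± 0.06, limma, adjusted p = 0.0234). Rpl23a, which helps to dock nascent chains at the exit tunnel, read 7.47, 7.56, 7.52 and 7.48 in scr against 7.23, 7.25, 7.36 and 7.27 in siLox. Every siLox array was lower, with a difference of −0.23 ± 0.05 (limma, adjusted p = 0.0247). The difference was −0.22 for both Rpl28 and Rps25 (limma, adjusted p = 0.0403 and 0.0396). Rpl24 had the lowest difference of all members by brightest probe (−0.32). It read 8.29, 8.22, 8.08 and 8.15 in scr and 7.62, 7.80, 8.01 and 8.01 in siLox. Its siLox arrays were spread widely, and it did not pass (limma, adjusted p = 0.0552).

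These calls depended on the scaling and on single libraries. When arrays were scaled by quantiles, the family median became 0.0056, 44 of 84 differences were positive, and 0 members passed in limma (8 at an unadjusted p under 0.05, against 28 with the 75th percentile), while 24.6% of all genes passed. With the 75th percentile, 0 members passed without siLox replicate 1, 2 or 3 or without scr replicate 2 or 3 (11 to 22 at an unadjusted p under 0.05), 2 without scr replicate 1, 5 without siLox replicate 4 and 9 without scr replicate 4. The share of all genes called fell to between 8.14% and 11.7% in the 5 settings that left 0 members. Fitting all 16 arrays together, which adds the spread of the other slide, called 3 members higher and 30 lower, where 43.0% of all genes passed.

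The level of the family could be followed array by array as the median deviation of the 84 genes from their own mean over the 16 arrays. With the 75th percentile it was −0.07, 0.02, −0.10 and −0.04 in scr and −0.29, −0.14, −0.14 and −0.12 in siLox. On the other slide it was 0.15, 0.17, 0.18 and 0.12 in siLoxL1 and 0.00, 0.12, 0.09 and 0.11 in siLoxL2. All siLox arrays lay below all scr arrays, replicate 1 the farthest, and all siLoxL1 arrays above all siLoxL2 arrays. On both slides the lower group was the one in row 2, and the part of the row was not tested. With quantiles every array lay between −0.02 and 0.02. The 99th percentile of all probes of non-members was 7.005 to 7.09 in scr, 6.87 to 7.01 in siLox, 7.37 to 7.40 in siLoxL1 and 7.27 to 7.37 in siLoxL2. In this measure siLox overlapped scr and siLoxL1 overlapped siLoxL2, the second slide was above the first, and siLox replicate 1 was lowest, as it was in the family. The Pearson r of this measure with the family median was 0.96 over the 16 arrays and 0.97 within each slide, given as a description. Of the 557 probes above the 99th percentile of an array, 105 to 111 (18.9% to 19.9%) belonged to members. Scaling by quantiles gives all arrays the same distribution, so it removes any shift that members share with the other bright probes, whatever its source. The part of this shared shift in the member differences was not tested.

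**Figure D1:**
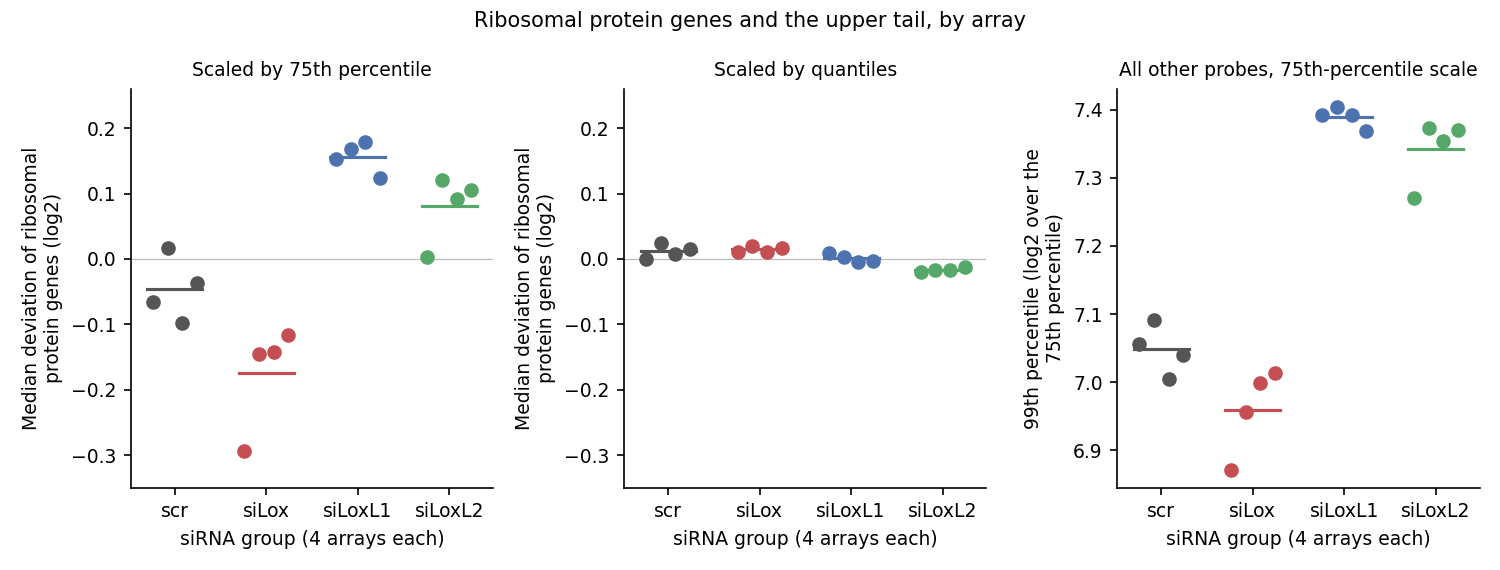
Each point is 1 of 4 arrays per group and each bar the group mean: the median log2 deviation of 84 ribosomal protein genes scaled by the 75th percentile (left) and by quantiles (middle), and the 99th percentile of all other probes in log2 over the 75th percentile (right). The siLox arrays are lowest on the left, with replicate 1 at −0.29, all arrays lie between −0.02 and 0.02 in the middle, and the second slide (siLoxL1, siLoxL2) is higher on the right.

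Between Loxl1 and Loxl2 knockdown, on the second slide, the family was nearly level. The median of the 84 genes was 0.07 higher in siLoxL1, against 0.03 over all genes, and 77 of 84 differences were positive. No member passed in limma (0 of 84; 19 at an unadjusted p under 0.05), where 8.82% of all genes did. In 15 members all siLoxL1 arrays were above all siLoxL2 arrays and in 0 below; the shares of all genes were 14.7% and 5.63%. The highest differences were in Rps4l (0.20 ± 0.06, adjusted p = 0.0739), Rpl36a (0.18 ± 0.05, adjusted p = 0.0547) and Rpsa, also known as the laminin receptor precursor (0.17 ± 0.05, adjusted p = 0.0720), all from limma. The lowest were Rpl31 (−0.07), Rps12 (−0.03) and Rpl6 (−0.03). Rpl36a read 7.63, 7.61, 7.68 and 7.63 in siLoxL1 and 7.34, 7.48, 7.50 and 7.51 in siLoxL2, without overlap. With quantiles it was the 1 member called, at 0.15 (limma, adjusted p = 0.0498), where 6.66% of all genes passed, and the family median was 0.02.

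Against scr, across the slides, both the number of members called and their direction rested on the scaling. With the 75th percentile, 51 members rose and 6 fell in siLoxL1 (median 0.17; all genes 0.19), where 65.1% of all genes passed, 43.2% higher and 21.9% lower. In siLoxL2, 39 rose and 7 fell (median 0.12; all genes 0.17), where 64.8% passed, 41.4% higher and 23.4% lower. In either direction 57 and 46 of 84 members were called, near the share of all genes in siLoxL1 and below it in siLoxL2. By direction, a larger share of members than of all genes rose and a smaller share fell in both comparisons. With quantiles 13 rose and 21 fell in siLoxL1 (median −0.01; all genes 0.08) and 12 rose and 24 fell in siLoxL2 (median −0.02; all genes 0.07), where 62.2% of all genes (34.5% higher, 27.7% lower) and 62.5% (33.6% higher, 28.9% lower) passed. Centring on the array median instead gave 39 higher and 6 lower in siLoxL1 and 23 and 13 in siLoxL2, where 63.1% and 61.4% of all genes passed. Both comparisons share the scr arrays. The excess of rising members did not hold with quantiles, where a smaller share of members than of all genes rose in both.

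Under both scalings 19 members were called in the same direction in siLoxL1, 13 higher and 6 lower, and 19 in siLoxL2, 12 higher and 7 lower. In siLoxL1 Rpl23a, Rpl28, Rpl3, Rps15a, Rps27l and Rps3a1 were called higher with the 75th percentile and lower with quantiles, and in siLoxL2 Rps15a was. Rps27l, for example, was 0.25 higher in siLoxL1 with the 75th percentile (limma, adjusted p = 0.000622) and −0.10 with quantiles (limma, adjusted p = 0.0384). The difference of the family from all genes also turned with the processing: the family median less the all-gene median was −0.03 (75th percentile), −0.09 (quantiles) and 0.37 (normexp) in siLoxL1. It was also positive without the filter (0.26), with only probes above background on all 16 arrays (0.014) and with the mean over probes (0.07). Normexp moved the median of all genes in siLoxL1 from 0.19 to −0.07.

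**Figure D2:**
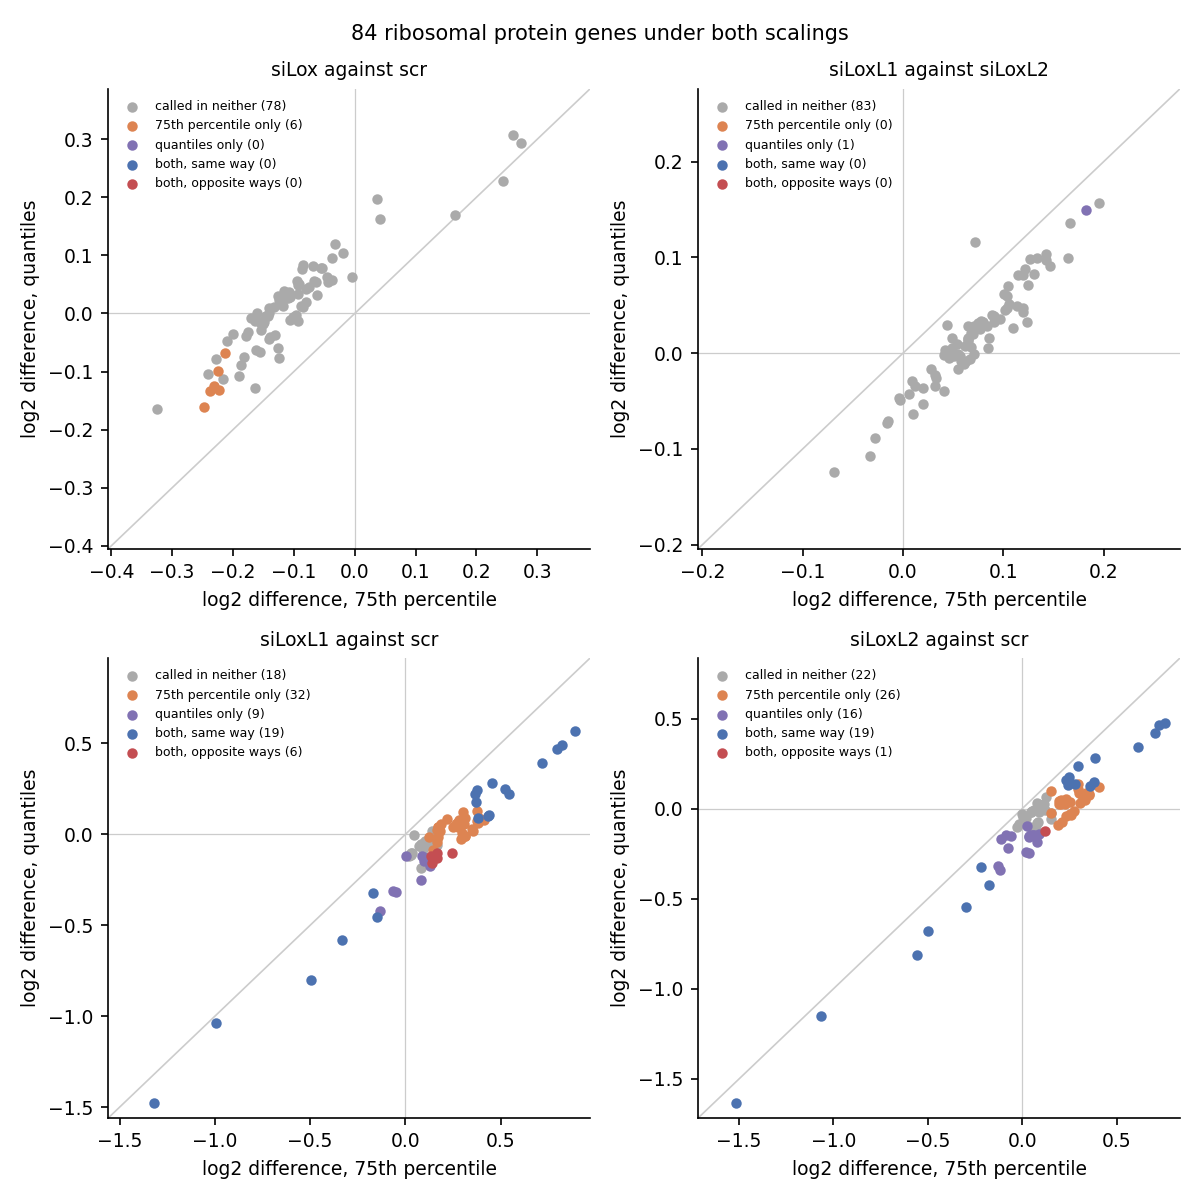
Each point is 1 of 84 ribosomal protein genes, with its log2 difference scaled by the 75th percentile on the x axis and by quantiles on the y axis, coloured by the limma calls under each (adjusted p threshold 0.05); the grey diagonal marks equal values. In both comparisons with scr across slides most points lie below the diagonal, and 19 members in each keep their call and direction.

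The members that rose most across slides were the same 4 in both comparisons under both scalings. Rpl36a, a large-subunit protein encoded on the X chromosome, read 6.86, 6.78, 6.67 and 6.68 in scr, 6.50, 6.50, 6.59 and 6.64 in siLox, and at least 7.34 on every siLoxL1 and siLoxL2 array. Every array of the second slide was above every array of the first. The differences from scr were 0.89 ± 0.06 in siLoxL1 and 0.71 ± 0.06 in siLoxL2 (limma, adjusted p = 6.62e-09 and 8.49e-08), and 0.57 and 0.42 with quantiles. Rpl4, whose long loop lines the peptide exit tunnel, read 6.33, 6.43, 6.32 and 6.35 in scr and 6.15, 6.31, 6.30 and 6.15 in siLox. It read 7.16, 7.20, 7.15 and 7.19 in siLoxL1 and 7.10, 7.16, 7.02 and 7.17 in siLoxL2. The slides again did not overlap, with differences of 0.82 ± 0.05 and 0.75 ± 0.05 (limma, adjusted p = 5.66e-09 and 1.70e-08) and 0.49 and 0.47 with quantiles. Rps21, a small-subunit protein, read 5.82, 5.78, 5.64 and 5.68 in scr and 5.47, 5.53, 5.59 and 5.67 in siLox. It read 6.56, 6.52, 6.53 and 6.49 in siLoxL1 and 6.50, 6.43, 6.43 and 6.46 in siLoxL2, all above the first slide (0.79 ± 0.05 and 0.73 ± 0.05; limma, adjusted p = 7.97e-09 and 2.52e-08). The fourth was Rpl36al, a paralog of Rpl36a, at 0.72 ± 0.05 and 0.61 ± 0.05 (limma, adjusted p = 2.60e-08 and 1.58e-07).

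Rpl7a was at 0.54 in siLoxL1 and 0.41 in siLoxL2, and Rpl22 at 0.53 and 0.38. The small-subunit core genes had a median of 0.27 in siLoxL1 and 0.19 in siLoxL2, against 0.16 and 0.08 for the large subunit. With quantiles these medians were 0.04 and 0.02 for the small and −0.03 and −0.05 for the large subunit. In siLoxL1, 23 small-subunit genes rose and 1 fell of 31, and 26 large-subunit genes rose and 1 fell of 45, beside 43.2% and 21.9% of all genes. With quantiles 5 rose and 5 fell of the 31, and 7 rose and 11 fell of the 45, beside 34.5% and 27.7%. Among the 76 core genes, the 38 with the dimmer brightest probe had a median of 0.30 in siLoxL1 and 0.24 in siLoxL2, and the 38 brighter 0.17 and 0.09. With quantiles these medians lay between −0.03 and 2.4e-05. Within slides the medians of the dimmer and brighter genes were −0.12 and −0.12 in siLox against scr and 0.07 and 0.07 in siLoxL1 against siLoxL2 with the 75th percentile. With quantiles they were −0.013 and 0.025, and 0.018 and 0.0089.

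Of the 8 tested paralogs and related names, Rps4l, Rpl39l, Rpl22l1 and Rps19bp1 had the lowest differences of all members by brightest probe in both comparisons across slides. Rps4l, a gene related to the small-subunit gene Rps4x, read 3.62, 3.72, 3.68 and 3.77 in scr and 3.79, 3.96, 3.88 and 3.82 in siLox. It read 2.40, 2.39, 2.40 and 2.32 in siLoxL1 and 2.03, 2.26, 2.24 and 2.20 in siLoxL2. The second slide lay wholly below the first, at −1.32 ± 0.06 and −1.51 ± 0.06 against scr (limma, adjusted p = 1.59e-10 and 7.17e-11). Rpl39l, a paralog of Rpl39 known for high levels in male germ cells, was close to the lower end of the scale here. It read −2.65, −2.02, −2.37 and −1.98 in scr and −1.89, −2.08, −1.93 and −2.14 in siLox, against −3.16, −3.40, −3.17 and −3.27 in siLoxL1 and −3.52, −3.10, −3.21 and −3.45 in siLoxL2. Its differences from scr were −0.995 ± 0.14 and −1.07 ± 0.14 without overlap (limma, adjusted p = 1.87e-05 and 1.03e-05). The 75th percentile was 8.67 to 9.03 on the first slide and 9.74 to 9.90 on the second. A dim probe of unchanged signal would thus read lower on the second slide. The part of this in the Rpl39l differences was not tested.

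Rpl22l1, the paralog of Rpl22, read 6.25, 6.37, 6.29 and 6.43 in scr and 6.19, 6.36, 6.40 and 6.37 in siLox. It read 5.84, 5.79, 5.96 and 5.77 in siLoxL1 and 5.76, 5.76, 5.81 and 5.77 in siLoxL2, below every array of the first slide. The differences from scr were −0.49 ± 0.06 and −0.56 ± 0.06 (limma, adjusted p = 3.81e-06 and 1.22e-06), and −0.80 and −0.81 with quantiles. Rps19bp1, which binds Rps19 and is no subunit, was −0.33 ± 0.08 in siLoxL1 and −0.50 ± 0.08 in siLoxL2 (limma, adjusted p = 0.00251 and 0.000102). Rps4l, Rpl39l, Rpl22l1 and Rps19bp1 stayed negative and past the threshold against scr under each of 17 alternative settings in both comparisons, as did Rpl36a, Rpl4, Rps21 and Rpl36al on the positive side. The lowest core subunit past the threshold was Rpl10a in siLoxL1 (−0.17) and Rps18 in siLoxL2 (−0.30). By brightest probe Rpl7l1 differed little, at 0.04 and −0.00081, and so did Rps12l2, at 0.03 and 0.02, none past the threshold. The other detected Rps12l2 probe was at 0.28 and 0.24, and 1 of the 2 was called higher in each comparison.

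The ratio of a paralog to its core counterpart on the same array does not depend on how that array is scaled by a constant. Set to 0 at the scr mean, the log2 ratio of Rpl22l1 to Rpl22 was −0.08, −0.05, −0.03 and 0.17 in scr and 0.01, 0.16, 0.10 and 0.06 in siLox. It was −1.09, −1.09, −0.98 and −0.92 in siLoxL1 and −0.83, −1.02, −0.97 and −0.95 in siLoxL2, so the slides separated and the groups within a slide overlapped. This ratio rests on the brightest Rpl22 probe. The other Rpl22 probe was −0.43 in siLoxL1 and −0.44 in siLoxL2 against scr, near the −0.49 and −0.56 of Rpl22l1. The ratio of Rps4l to Rps4x averaged −1.75 ± 0.05 in siLoxL1 and −1.82 ± 0.06 in siLoxL2 (SD, n = 4). In siLox it was 0.32, 0.35, 0.21 and 0.17, above every scr array (−0.08 to 0.08). The ratio of Rpl39l to Rpl39 averaged −1.37 ± 0.12 in siLoxL1 and −1.39 ± 0.17 in siLoxL2, and the 4 siLox arrays (0.15 to 0.58) overlapped scr (−0.31 to 0.30). Rpl39l lay close to the lower end of the scale, which limits this ratio. Rps27l to Rps27 was −0.13 ± 0.07 in siLox, −0.05 ± 0.10 in siLoxL1 and −0.08 ± 0.02 in siLoxL2 (SD, n = 4), and Rpl36al to Rpl36a was 0.07 ± 0.08, −0.17 ± 0.04 and −0.09 ± 0.05. These ratios are given as descriptions, with no test.

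**Figure D3:**
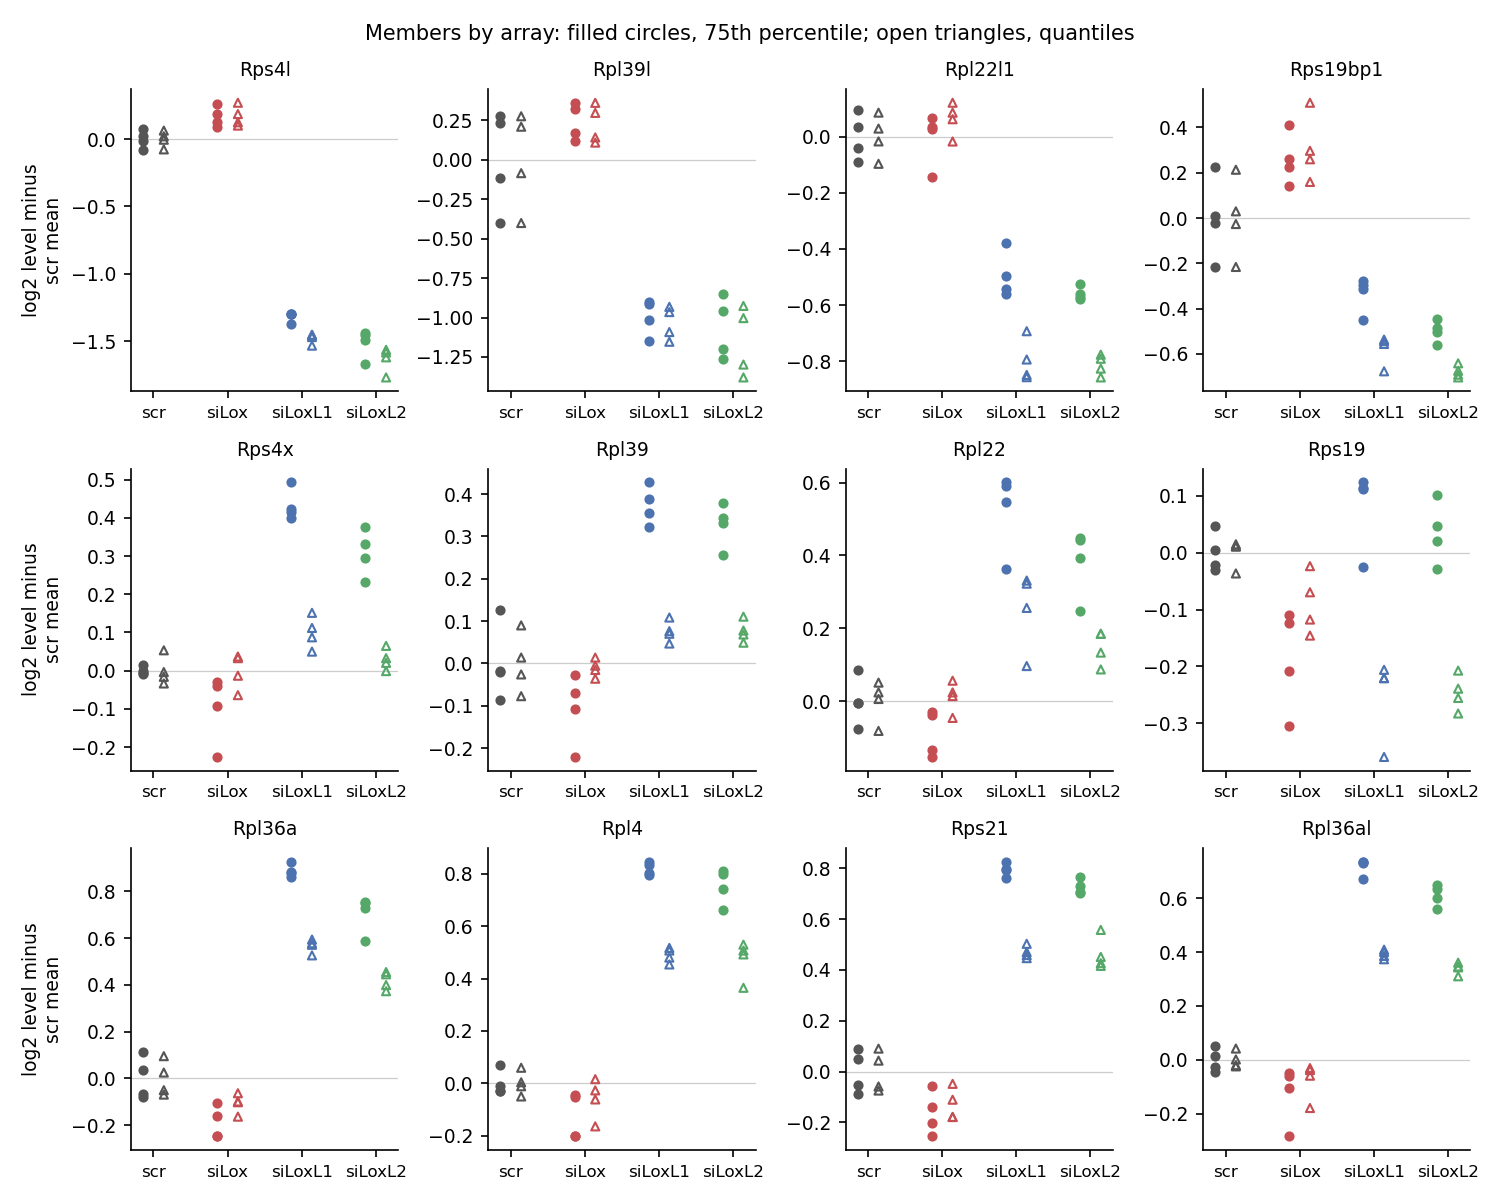
Levels of 12 members on each of 16 arrays as log2 difference from the scr mean, with filled circles for scaling by the 75th percentile and open triangles for quantiles; each panel has its own y axis. The 4 paralogs and related names in the top row lie lower on the second slide, with Rps4l lowest, while the core counterparts Rps4x, Rpl39 and Rpl22 in the middle row and the 4 members in the bottom row lie at or above the scr mean there; Rps19 lies near 0 or below it, depending on the scaling.

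Members with roles of their own are given next. The stalk proteins recruit translation factors: Rplp0 read 8.64, 8.66, 8.48 and 8.61 in scr against 8.37, 8.48, 8.47 and 8.60 in siLox. On the second slide it read 8.66, 8.66, 8.65 and 8.55 after siLoxL1, then 8.42, 8.48, 8.58 and 8.57 after siLoxL2. All groups overlapped scr, and by brightest probe no comparison passed for Rplp0 or Rplp1 with the 75th percentile. Yet 1 of 3 Rplp0 probes was called higher against scr in both siLoxL1 and siLoxL2, with highest differences of 0.48 and 0.44. Rplp2 was 0.13 higher in siLoxL1 than in scr (limma, adjusted p = 0.0333) and −0.02 with quantiles. Rpl5 and Rpl11, which bind the p53 regulator Mdm2 as part of the particle with the smallest ribosomal RNA, differed: Rpl5 was 0.31 ± 0.04 higher in siLoxL1 and 0.23 ± 0.04 in siLoxL2 (limma, adjusted p = 1.63e-05 and 0.000262) but −0.01 and −0.04 with quantiles. Rpl11 was at 0.13 and 0.07 by its brightest probe and did not pass. However, 2 of its 3 probes were called higher in siLoxL1 and 1 in siLoxL2, with highest differences of 0.65 and 0.59. Rps6, the S6 kinase substrate, was 0.14 ± 0.05 higher in siLoxL1 (limma, adjusted p = 0.0143) and −0.08 with quantiles. Rpsa was −0.22 in siLoxL2 with quantiles (limma, adjusted p = 0.000618) and −0.07 with the 75th percentile, which did not pass. Of the 4 Rpsa probes, 2 were called higher in siLoxL2 with the 75th percentile, with a highest difference of 0.59. Rpl17 was −0.18 in siLoxL2 by its brightest probe and 0.34 by the mean over its probes.

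Rpl13a and Rps18 are used as reference genes in quantitative PCR, and their brightest probes went opposite ways across the slides. Rpl13a read 7.44, 7.53, 7.44 and 7.45 in scr and 7.37, 7.40, 7.48 and 7.42 in siLox, then 7.84, 7.84, 7.92 and 7.77 in siLoxL1 and 7.77, 7.83, 7.87 and 7.84 in siLoxL2. The second slide was higher throughout, by 0.38 ± 0.04 and 0.36 ± 0.04 (limma, adjusted p = 3.34e-06 and 6.17e-06), and by 0.09 and 0.13 with quantiles. Rps18 read 7.55, 7.66, 7.51 and 7.60 in scr and 7.28, 7.37, 7.47 and 7.56 in siLox, then 7.45, 7.39, 7.49 and 7.40 in siLoxL1 and 7.19, 7.33, 7.36 and 7.27 in siLoxL2. Both siLoxL1 and siLoxL2 were below scr without overlap, by −0.15 ± 0.06 and −0.30 ± 0.06 (limma, adjusted p = 0.0470 and 0.000800), and by −0.45 and −0.55 with quantiles. The other detected Rps18 probe was at 0.07 in siLoxL1 and 0.08 in siLoxL2 and did not pass (limma, adjusted p = 0.183 and 0.113). With normexp background correction the siLoxL1 value of Rps18 was 0.0037. Neither passed between siLox and scr or between siLoxL1 and siLoxL2.

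Different probes of a member did not always read alike. In 61 members with several detected probes, the gap between the highest and the lowest log2 difference had a median of 0.09 in siLox against scr, 0.06 in siLoxL1 against siLoxL2, 0.22 in siLoxL1 against scr and 0.19 in siLoxL2 against scr. Of 190 detected member probes, 3 rose and 13 fell in siLox against scr, where 21.1% of 32430 probes passed in limma. Across slides 134 rose and 7 fell in siLoxL1 and 114 and 11 in siLoxL2, where 62.5% and 62.3% passed. Probes of Rpl22 and Rps15a were called in opposite directions in both comparisons across slides, and those of Rpl17 and Rpl21 in siLoxL2.

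The stretches read by the discordant probes are shown by their first 30 of 60 bases, as in the deposited scanner files, with positions on mm9 and no letters singled out.
Rpl22 probe 1, chr4:151706515-151706574, plus strand: ggaggaagacgaggattaggacacattggt
Rpl22 probe 2, chr4:151708012-151708071, plus strand: gctgtaaacaacattaaccctgggttgatt
Rps27a probe 1, chr11:29445914-29445973, minus strand: tggtgctggagtttttatgggaagccactt
Rps27a probe 2, chr11:29447939-29447998, minus strand: aaagaaaccgagcgaacgagcaaatctggc
Rps15a probe 1, chr7:125252644-125252703, minus strand: attgtgctgacaacctaggctggcatcatg
Rps15a probe 2, chr7:125248322-125248381, minus strand: gtgagtcagcagaaagtatagatagcaaag
Probe 1 is the brightest probe in each case. Rpl22 probe 1 was 0.53 higher in siLoxL1 than in scr and probe 2, downstream, −0.43 (limma, adjusted p = 7.74e-06 and 1.36e-06), so the Rpl22l1 to Rpl22 ratio above holds for probe 1. For Rps27a, which is made as a fusion with ubiquitin, probe 2 lies upstream and was 1.03 higher in siLox (limma, adjusted p = 0.0245) where probe 1 was −0.13. That was the widest gap in siLox against scr, 1.20 with the third Rps27a probe at −0.17. Rps15a probe 2, a dim probe downstream, was −0.63 in siLoxL1 where probe 1 was 0.16 (limma, adjusted p = 0.0216 and 0.0134).

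Some probes lie away from the gene they are named for. Of the 190 detected probes, 11 in 5 members are placed in the scanner files on another chromosome than RefSeq gives the gene: all 4 of Rps27 (on chromosome 9), all 3 of Rps29 (on chromosome 2), 2 of Rpl13 (on chromosome 4), and 1 each of Rpl36 and Rps4x. For 3 probes the chromosomes could not be compared. Ribosomal protein genes are known for many processed copies in the genome, so these values may hold signal from a copy. Probes of Rps12 and Rps12l2 share 23 identical bases, so their values may not be independent.

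**Figure D4:**
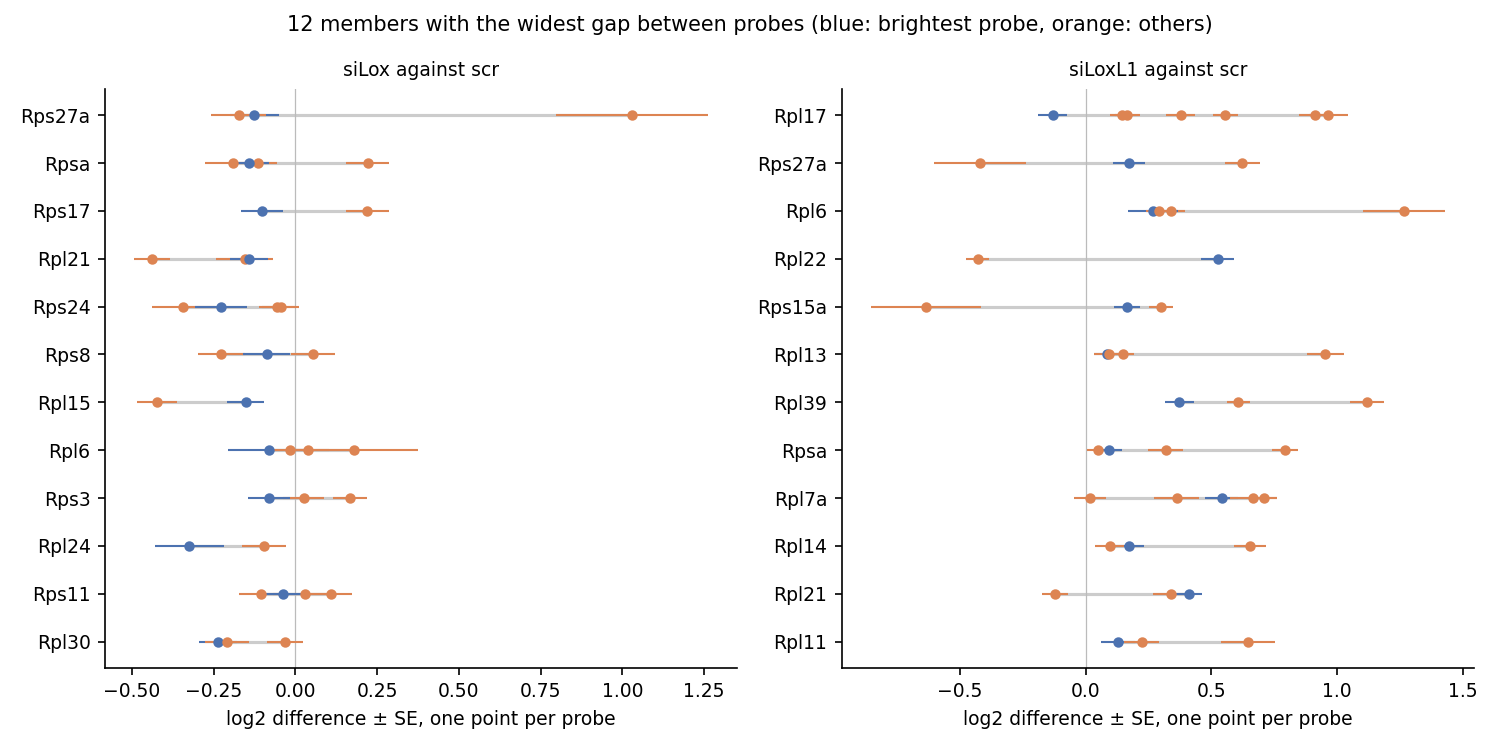
Log2 difference ± SE per probe (limma) for the 12 members with the widest gap between probes, in siLox against scr (left) and siLoxL1 against scr (right), with the brightest probe of each gene in blue and the others in orange. On the left the upstream Rps27a probe stands apart at 1.03; on the right the gaps are wider, and probes of Rpl22, Rps15a and some other members lie on both sides of 0.

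Within groups the members varied little. The median SD over 4 arrays was 0.07 in scr, 0.09 in siLox, 0.06 in siLoxL1 and 0.07 in siLoxL2, against 0.17, 0.13, 0.09 and 0.09 over all genes. Only 4, 13, 16 and 15 of the 84 members had an SD above the all-gene median in these groups. Members held 18.9% to 19.9% of the probes above an array's 99th percentile. Their SDs were not set against genes of like brightness, so low spread is not shown to be particular to them. The widest was Rpl39l in scr (0.32) and siLoxL2 (0.20), Rpl6 in siLox (0.20) and Rpl31 in siLoxL1 (0.22). With quantiles the median SD of members was 0.05, 0.05, 0.05 and 0.04.

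Genes that build or regulate ribosomes were counted in lists beside the members. After Lox knockdown, 21 of 69 tested ribosome assembly factors rose and 0 fell (median 0.28), with 11.5% of all genes rising. Among them were Gnl3, a nucleolar GTPase (0.68 ± 0.18), Wdr43 (0.58 ± 0.17) and Bysl, needed for the small subunit (0.57 ± 0.07; limma, adjusted p = 0.0348, 0.0446 and 0.00515). Of 14 genes of RNA polymerase I and its factors, which transcribe ribosomal RNA, 6 rose and 0 fell (median 0.34), led by Taf1d (0.85 ± 0.24) and Twistnb (0.47 ± 0.09; limma, adjusted p = 0.0371 and 0.0140). Of 18 other TOP transcripts, 0 passed (median −0.13 with the 75th percentile and −0.03 with quantiles), where the member medians were −0.12 and 0.0056. The share of all genes called was 25.0% with the 75th percentile and 24.6% with quantiles. Of 24 regulators around mTORC1, Larp1 and Myc, 4 rose and 7 fell, beside 11.5% and 13.6% of all genes. Among these regulators Myc rose by 0.60 ± 0.13, and Deptor, an inhibitor of mTOR, was −1.47 ± 0.31 (limma, adjusted p = 0.0206 and 0.0179).

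Between siLoxL1 and siLoxL2, 9 of 69 assembly factors rose in siLoxL1 and 0 fell (median 0.06), where 8.82% of all genes passed in either direction. They were led by Tcof1, a regulator of ribosomal RNA synthesis (0.41 ± 0.06, limma, adjusted p = 0.0129), and 0 of 18 other TOP transcripts passed. Against scr, assembly factors split into 21 higher and 32 lower in siLoxL1 and 16 and 39 in siLoxL2 (medians −0.17 and −0.28), and with quantiles into 10 and 44 and 9 and 48. For these and the next lists, 43.2% of all genes rose and 21.9% fell in siLoxL1, and 41.4% and 23.4% in siLoxL2. With quantiles these shares were 34.5% and 27.7% in siLoxL1, and 33.6% and 28.9% in siLoxL2. The other TOP transcripts had 12 higher and 3 lower in siLoxL1 and 10 and 2 in siLoxL2 (medians 0.23 and 0.17), but with quantiles 4 and 5 and 4 and 7 (medians −0.03 and −0.06). Eef1a1, the elongation factor, was 0.59 ± 0.07 higher in both, and the translation initiation factor subunit Eif3e was −0.55 ± 0.07 and −0.48 ± 0.07. Of 8 genes linking ribosomal proteins to p53, 2 rose and 3 fell in siLoxL1 (1 and 4 with quantiles). Trp53 was −0.71 ± 0.11 in siLoxL1 and −0.48 ± 0.11 in siLoxL2 (limma, adjusted p = 3.92e-05 and 0.00112).

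Markers of other cell types differed between groups as well. In siLox against scr, 4 of 5 mesothelial markers fell and 0 rose (median −0.34). Of 10 fibroblast markers, 5 fell and 0 rose (median −0.48), namely Col1a2, Pdgfrb, S100a4, Thy1 and Vim. Of all genes, 13.6% fell and 11.5% rose there. Across slides, 4 of 5 tested mesothelial markers fell and 1 rose against scr in both siLoxL1 and siLoxL2, with Wt1 at −2.38 ± 0.06 and −2.64 ± 0.06. Of 10 fibroblast markers, 6 rose and 3 fell in siLoxL1, and 5 rose and 3 fell in siLoxL2. Among all genes 43.2% rose and 21.9% fell in siLoxL1, and 41.4% and 23.4% in siLoxL2. The summed log2 level of the mesothelial list was 3.27 to 3.42 in scr, 2.96 to 3.05 in siLox, 2.32 to 2.71 in siLoxL1 and 2.35 to 2.49 in siLoxL2. The summed level of the leukocyte and macrophage list was 3.24 to 3.99 in scr, 3.74 to 3.99 in siLox, 3.85 to 3.96 in siLoxL1 and 3.88 to 4.00 in siLoxL2. That of the fibroblast list was 9.95 to 10.09 in scr, 9.38 to 9.79 in siLox, 10.18 to 10.25 in siLoxL1 and 10.07 to 10.19 in siLoxL2. Of 9 epithelial markers, 4 were above background on all 16 arrays, and the summed level of that list was 3.13 to 3.31 in scr, 3.42 to 3.56 in siLox, 4.03 to 4.13 in siLoxL1 and 4.02 to 4.21 in siLoxL2. A sum is weighted to the brightest genes of its list, and most tested epithelial markers went the other way across slides. Of the 5 tested, 1 rose and 3 fell against scr in both siLoxL1 and siLoxL2 (medians −1.26 and −1.12). In siLox against scr, 2 rose and 1 fell (median −0.22). The part of cell makeup in the differences of the members was not tested.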

How the data were processed

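RNA of 16 samples was read on 1-colour (Cy3) arrays with 55681 non-control probes. The deposited scanner files hold intensity values that the authors produced with Agilent Feature Extraction 10.7.3.1, per the submitters' processing notes: processed signals are background-subtracted and not normalized between arrays, per the file headers. The authors' deposited value table holds log2 values whose columns share 1 distribution; how it was made is not stated in the labels or headers, and it served as an alternative.

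Control spots and outliers were dropped, repeated spots averaged per probe, and the log2 of the processed signal centred on the 75th percentile of each array. A probe was kept if it exceeded background clearly on every array of some group (4 of 4), and a gene was read by its brightest probe. limma 3.58.1 (lmFit, eBayes) in R 4.3.3 was fitted across all genes with Benjamini-Hochberg adjustment at 0.05, on the 8 arrays of a slide for comparisons within a slide and on all 16 between slides. Signal over background, and 4 arrays a group, limit the precision. The script was tested on simulated data. Alternatives were quantile scaling, array median, normexp (offset 50), filters, probe averaging, other arrays in the fit, a replicate block and leaving out each array.

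Genes were named by rule: the highest and lowest called members, paralogs with their counterparts, members with roles of their own, discordant probes, members whose call turned with the scaling, and up to 3 called genes of each other list. The members and lists were chosen with earlier results of these data known. RefSeq sequences are of GRCm38.p6 and probe positions of mm9. The values of 1 member are not reported here.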

Additional observations from a re-analysis of the deposited data

Results flagged for a closer look

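In 14 of 188 groups of 4 arrays, 1 array stood apart from the other 3 by more than Dixon's 95% limit on the gap as a share of the group's range; chance gives about 1 such group in 20. The family median of siLox replicate 1 was −0.29. The same array was lowest for Rpl10 (8.28), Rpl13 (7.84), Rpl28 (7.43) and Rpl3 (7.42). In scr, Rpl13a (7.53) and Rps12l2 (8.68) were highest on replicate 2 and Rpl7a (6.83) was lowest on replicate 3. In siLoxL1, replicate 4 was lowest for Rpl36al (6.62), Rplp0 (8.55) and Rps4l (2.32), Rps19 was lowest on replicate 2 (7.16) and Rpsa was highest on replicate 3 (8.42). In siLoxL2, Rpl30 was lowest on replicate 1 (7.45). All are log2 levels relative to the array's 75th percentile, except the family median, which is a log2 deviation. The cause was not tested.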

How the results depend on the processing

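In siLox against scr, the count of called members (6) became 0 with quantiles, with the authors' deposited table, without the filter (20 at an unadjusted p under 0.05 in limma) and with the replicate block (10 at an unadjusted p under 0.05), where 24.6%, 24.6%, 8.56% and 0.0133% of all genes passed. It became 15 with normexp (27.7% of all genes) and with probes above background on all 16 arrays (36.4%), and 33 with all arrays in the fit (43.0%). Leaving out 1 array gave 0 to 9. The median became 0.0056 with quantiles and 0.0052 with the authors' table, and −0.14 to −0.08 without 1 array. In siLoxL1 against siLoxL2, the count of 0 became 1 with quantiles, the authors' table and the array median, and 4 with normexp and the strict filter, and stayed 0 to 0 without 1 array. The median became 0.016 with quantiles, 0.017 with the authors' table and 0.13 with the array median, and 0.04 to 0.09 without 1 array.

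In siLoxL1 against scr, the count of 57 became 34 with quantiles and the authors' table, and 47 to 54 without 1 array. The median became −0.014 with quantiles, −0.014 with the authors' table, 0.30 with normexp and 0.25 with the mean over probes, and 0.16 to 0.19 without 1 array. In siLoxL2 against scr, the count of 46 stayed within 1.5 times, at 40 to 46 without 1 array. It was 36 with quantiles, the authors' table and the array median, where 62.5%, 62.4% and 61.4% of all genes passed. With normexp it was 67, where 79.2% of all genes passed. The direction turned, from 39 higher and 7 lower to 12 higher and 24 lower with quantiles. The median became −0.020 with quantiles, −0.020 with the authors' table, 0.030 with the array median, 0.24 with normexp and 0.20 with the mean over probes, and 0.10 to 0.15 without 1 array.

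Signs reversed in siLoxL1 against scr with quantiles and the authors' table for Rpl23a (−0.16 and −0.16), Rpl28 (−0.10 and −0.10), Rpl3 (−0.12 and −0.12), Rpl5 (−0.0087 and −0.0100), Rplp2 (−0.016 and −0.016), Rps15a (−0.13 and −0.13), Rps19 (−0.25 and −0.25), Rps27l (−0.10 and −0.10), Rps3a1 (−0.12 and −0.12) and Rps6 (−0.083 and −0.086). Rps18 became 0.0037 with normexp, and with the mean over probes Rpl17 became 0.43 and Rps15a −0.056. In siLoxL2 against scr the same settings reversed Rpl3 (−0.14 and −0.14), Rpl5 (−0.041 and −0.043), Rps15a (−0.13 and −0.13), Rps19 (−0.25 and −0.25), Rps27l (−0.077 and −0.078) and Rps6 (−0.15 and −0.16). The mean over probes reversed Rpl17 (0.34), Rpl22 (−0.030), Rplp0 (0.14), Rps15a (−0.18) and Rpsa (0.21). Of the values of single genes under these settings, 2076 kept direction and call, 161 no longer passed, 52 newly passed and 40 reversed; the cause was not tested.

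Same-numbered arrays did not deviate together in siLox against scr (r −0.19 to −0.0027), and between siLoxL1 and siLoxL2 r was 0.04 to 0.22, so the numbers were not taken as pairs. With the replicate block the counts of called members were 0, 0, 55 and 45 in siLox against scr, siLoxL1 against siLoxL2, siLoxL1 against scr and siLoxL2 against scr, where 0.0133%, 3.78%, 64.3% and 63.8% of all genes passed.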
